A study of Mus musculus with 19 samples.

Results

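Expression in the prefrontal cortex of mice heterozygous for Polb was compared with that of wild type mice, gene by gene, over 9 of the 19 arrays of the series. The 4 arrays titled for Polb alone formed the first group and the 5 titled as wild type the second, and 11072 genes were tested. The Polb+/- mice were labelled C57BL/6, female, 20 months old and bred at the National Institute on Aging. The wild type mice carried the same strain, sex and age labels and no engineered allele. No treatment was recorded for either group. Of the other 10 arrays, 6 came from 3xTgAD mice, which carry the APPswe, PS1M146V and tauP301L transgenes, and 4 from 3xTgAD/Polb+/- mice, a cross of both lines. These 10 arrays, also labelled as 20 months old, entered the same fit and served as a second background for the heterozygosity. The promoters driving the transgenes and the exons removed from Polb were not given in the sources used here.

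Polb encodes DNA polymerase beta, the enzyme that fills the short gap left in base excision repair after a damaged base has been cut out, and that trims the sugar remnant from the broken strand. A glycosylase starts the pathway, the endonuclease APEX1 opens the strand, and the scaffold XRCC1 with DNA ligase III closes it. Oxidised bases are the usual substrate in neurons, which no longer divide and depend on this pathway through life.

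Total RNA was labelled and hybridised to Illumina bead arrays of 25697 probes, 1 RNA sample to an array. Values below are log2 intensities after background correction and quantile normalisation. A probe counted as detected where its detection p-value was under 0.05. Between 13409 and 14396 probes were detected on the Polb+/- arrays and between 13205 and 14379 on the wild type arrays, and the number of arrays limits the precision. Correlations between arrays, given as a description over genes, ran from 0.981 to 0.994 within Polb+/- and from 0.975 to 0.995 within wild type. The source labels spelled the age in 2 ways, "20- month" on 3 arrays of each group and "20 month" on 1 Polb+/- and 2 wild type arrays. The spelling was kept as a block in the fit, and what it stands for was not stated. Wild type replicates 1 and 3 stood apart from the other 7 arrays in low values of striatal markers, given below. The labels did not say that each array was a separate mouse. Codes given with the intensities all differed within these groups, but 3xTgAD replicates 2 and 5 shared 1 code. What the codes stand for was not stated, and the fit treated those 2 arrays as separate samples. The p-values therefore measure the spread between samples, pooled over the 19 arrays of the fit.

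Polb was lower on all 4 heterozygous arrays. The Polb+/- arrays read 7.26, 7.21, 6.95 and 6.98, and the wild type arrays 7.97, 7.60, 7.74, 7.82 and 7.55. The 2 groups did not overlap, and the highest Polb+/- array lay below the lowest wild type array. Polb differed by -0.61 ± 0.201 (SE) on the log2 scale, a 1.53-fold lower level, with unadjusted p = 0.00666 and adjusted p = 0.84 by limma. With the striatal marker level of each array as a covariate, described below, it was -0.37 (unadjusted p = 0.0969). Polb ranked 82nd of all genes by p, and the test over all genes was not passed. It was -0.56 within the "20- month" arrays and -0.80 within the "20 month" arrays. A single probe measured Polb, and its position relative to the deleted part was not given. In whole tissue, fewer cells of a type and less RNA per cell cannot be told apart.

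**Figure D1:**
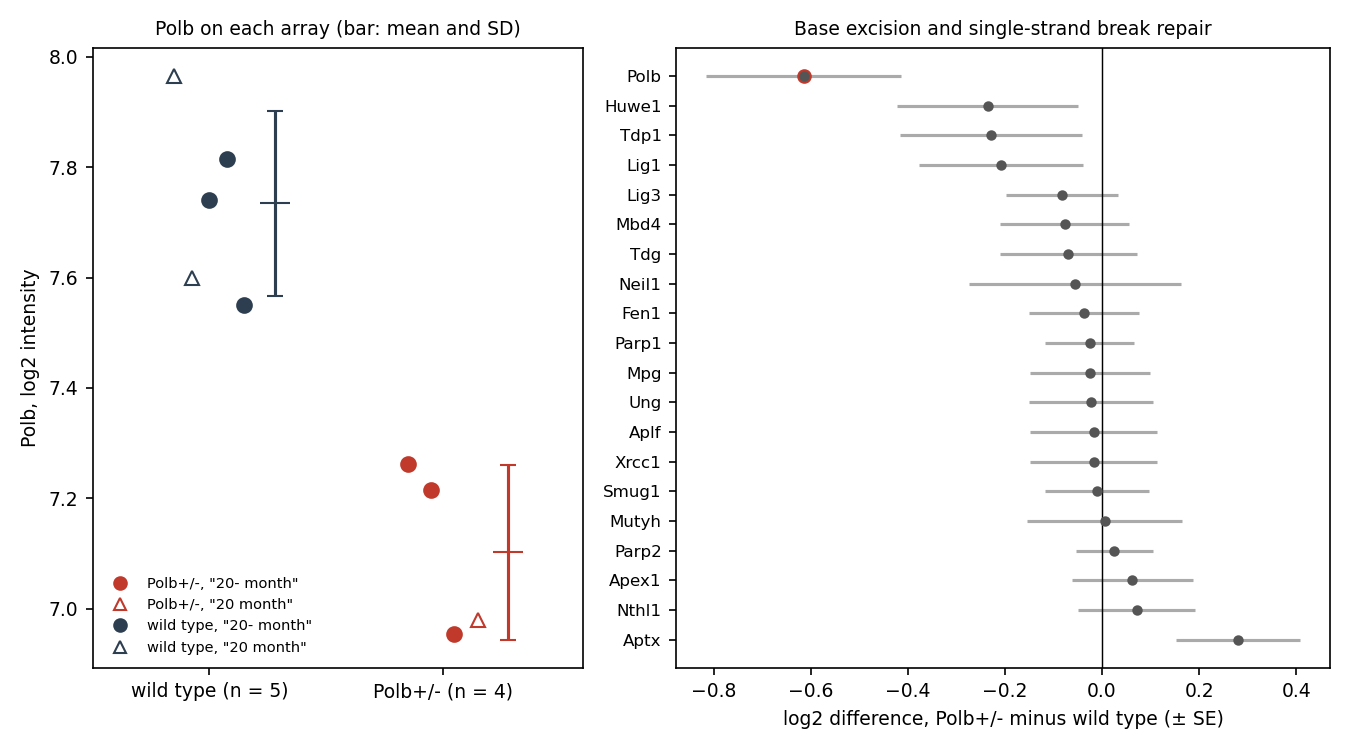
Left: log2 intensity of Polb on each of the 5 wild type and 4 Polb+/- arrays, with circles for the "20- month" and triangles for the "20 month" spelling, and the mean with its SD beside them. Right: log2 difference, Polb+/- minus wild type, with its SE for 20 base excision and single-strand break repair genes; Polb stands lowest at -0.61 and Aptx highest at 0.28.

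The other genes of the pathway showed small differences. Of 30 listed genes of base excision and single-strand break repair, 20 were tested, of which 15 were lower and 5 higher in Polb+/-. That excess was not kept under all settings, with 10 of 20 higher within the "20- month" arrays and 11 of 20 higher with array quality weights. Their median log2 difference was -0.03, beside -6e-04 over all 11072 genes. Unadjusted p was under 0.05 for 2 of the 20, beside 4.59% of all genes, and none of the 20 passed after adjustment. One was Polb itself, and the other was Aptx, which encodes aprataxin, the enzyme that removes AMP from stalled ligation ends. Aptx read 7.78, 7.62, 7.66 and 7.46 in Polb+/- and 7.38, 6.97, 7.42, 7.49 and 7.22 in wild type. The groups overlapped through Polb+/- replicate 4 and wild type replicate 4, and Aptx differed by 0.28 ± 0.128 (SE) on the log2 scale (adjusted p = 0.9999). These values come from its brightest probe, and its other 2 probes differed by 0.11 and 0.14 in the fit of single probes. With the mean of all probes of a gene, 1 of the 20 had unadjusted p under 0.05.

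Enzymes that act beside DNA polymerase beta lay within 1 SE of 0 or little beyond it. The log2 difference was 0.06 ± 0.125 (SE) for Apex1, the endonuclease, and -0.02 ± 0.131 (SE) for Xrcc1, the scaffold. It was -0.08 ± 0.116 (SE) for Lig3, the ligase of the short patch, -0.21 ± 0.169 (SE) for Lig1, the ligase of the long patch, and -0.04 ± 0.114 (SE) for Fen1, the flap endonuclease. Parp1 and Parp2, which sense strand breaks, differed by -0.03 and 0.03. Huwe1, a ubiquitin ligase known to act on DNA polymerase beta, differed by -0.24 ± 0.186 (SE), and its wild type replicate 3 at 7.94 lay above the other wild type arrays at 7.04 to 7.25. Of 18 other DNA polymerase genes tested, 10 were higher and 8 lower, with a median of 0.02, and none had unadjusted p under 0.05. Primpol, a primase and polymerase, came nearest with 0.16 ± 0.0872 (SE), and Poll, the closest relative of Polb, differed by 0.04 ± 0.116 (SE).

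Across all genes no difference passed the adjusted threshold of 0.05. The limma fit gave 508 genes with unadjusted p under 0.05, which was 4.59% of the genes tested, 240 of them higher in Polb+/- (2.17%) and 268 lower (2.42%). The groups did not overlap for 172 genes (1.55%), 83 higher (0.75%) and 89 lower (0.804%). Leaving out single arrays gave 6 passing genes without Polb+/- replicate 2, 2 without Polb+/- replicate 4, 1 without wild type replicate 2 and 2 without wild type replicate 4. Leaving out any other array of these groups gave 0. Array quality weights gave 5 genes, and median scaling in place of quantile normalisation gave Sstr1 alone.

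The 20 genes with the smallest p, 10 in each direction, are described next as those nearest to the threshold. Their adjusted p by limma ran from 0.101 to 0.538. The groups did not overlap for 14 of them, 6 higher and 8 lower, beside 1.55% of all genes. For all 20 the direction was the same within both spellings. These genes were chosen by p on the same arrays, with the spelling in the fit, so neither count is separate support for them.

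**Figure D2:**
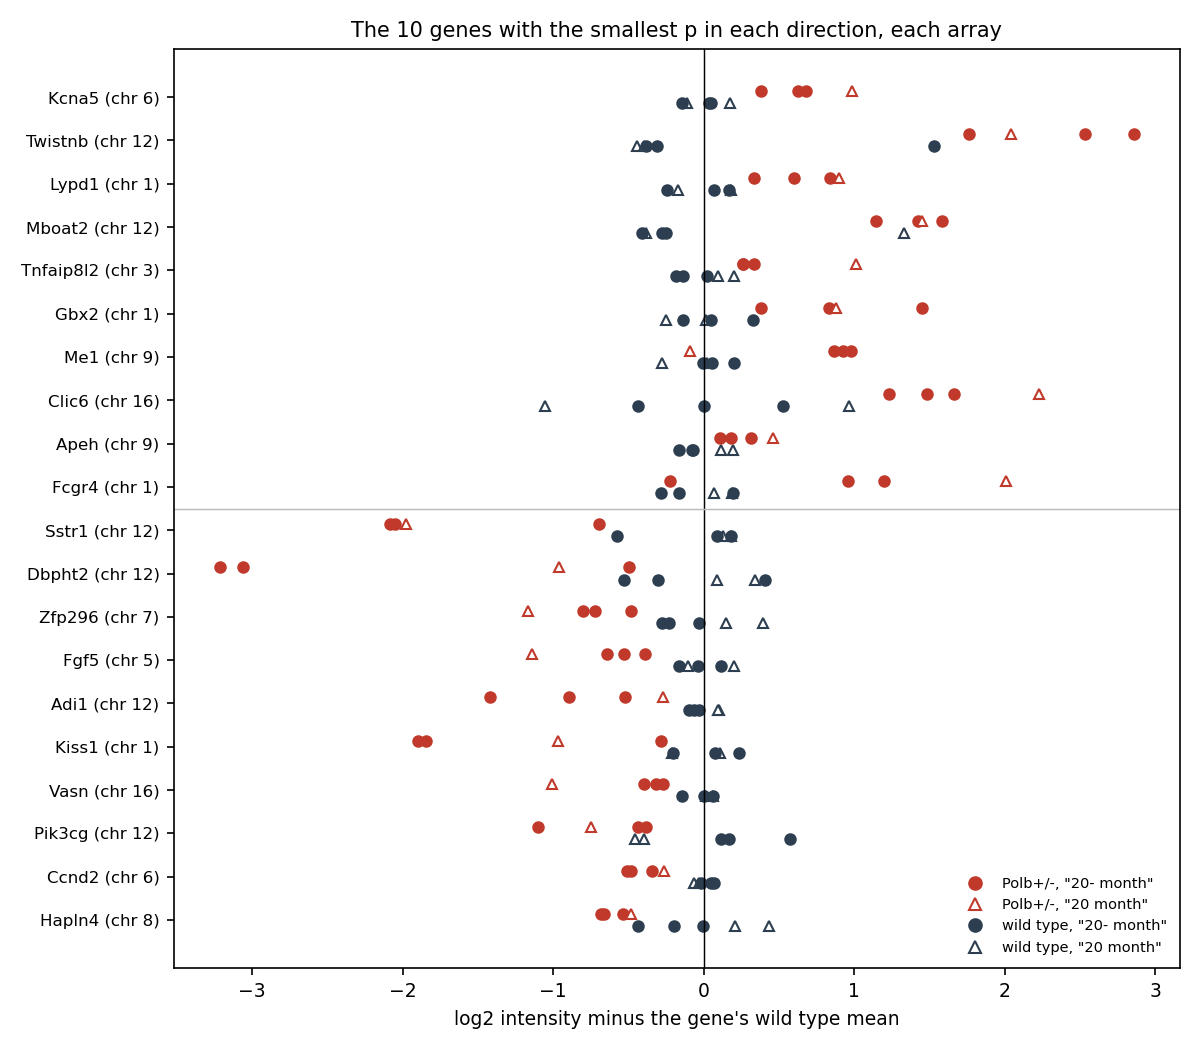
Log2 intensity on each array minus the gene's wild type mean, for the 10 genes with the smallest p in each direction, with the chromosome in brackets; red marks Polb+/-, dark marks wild type, and open triangles the "20 month" spelling. Twistnb, Mboat2 and Sstr1 each have 1 wild type array on the side of the Polb+/- arrays, and Dbpht2 and Kiss1 have 2 low Polb+/- arrays each.

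Sstr1, a receptor for the neuropeptide somatostatin, had the smallest p. Its Polb+/- arrays read 4.49, 5.88, 4.52 and 4.60, and its wild type arrays 6.70, 6.75, 6.66, 6.00 and 6.75. The groups lay apart by little, since Polb+/- replicate 2 stood near wild type replicate 4. The probe was detected on 1 of 4 Polb+/- and 5 of 5 wild type arrays. Sstr1 differed by -1.68 ± 0.278 (SE) on the log2 scale (limma adjusted p = 0.101). It passed without Polb+/- replicate 2 (adjusted p = 5.68e-04) and without wild type replicate 4 (0.0358), the arrays nearest to the other group. Leaving out 1 of the other arrays gave adjusted p up to 0.723. Somatostatin itself (Sst) read 12.36 to 12.53 in Polb+/- and 12.43 to 12.67 in wild type, which overlapped, and differed by -0.11 ± 0.181 (SE). The related peptide cortistatin (Cort) differed by 0.17 ± 0.453 (SE), with Polb+/- replicate 4 alone at 9.99. No other somatostatin receptor had a probe that passed the detection filter.

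Dbpht2 was lower by the largest difference among these 20 genes. It read 6.02, 8.59, 5.87 and 8.12 in Polb+/- and 9.17, 9.42, 8.55, 8.78 and 9.49 in wild type. Polb+/- replicates 1 and 3 were far below the other arrays, while replicate 2 lay among the wild type values. It differed by -1.86 ± 0.381 (SE, adjusted p = 0.229), and -2.37 without replicate 2 (adjusted p = 8.36e-04). Leaving out another array gave Dbpht2 an adjusted p of up to 0.74. Kiss1, which encodes kisspeptin, a hypothalamic peptide of the reproductive axis, showed the same 2 low arrays. It read 4.76, 6.32, 4.71 and 5.64 in Polb+/- and 6.71, 6.39, 6.68, 6.40 and 6.84 in wild type, with detection on 2 of 4 and 5 of 5 arrays. The difference was -1.22 ± 0.285 (SE, adjusted p = 0.413), and -1.55 without replicate 2 (adjusted p = 0.0156). Without another array the adjusted p of Kiss1 rose to as much as 0.973.

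A further 7 lower genes differed by less than 1 on the log2 scale. Zfp296, a zinc finger protein, read 6.26, 6.58, 6.33 and 5.89 against 7.45, 7.21, 7.02, 6.83 and 6.78, with no overlap and a difference of -0.78 ± 0.163 (SE). A second Zfp296 probe differed by -0.84 in the fit of single probes. Fgf5, a fibroblast growth factor that ends the growth phase of hair, read 6.78, 6.67, 6.93 and 6.17 against 7.51, 7.21, 7.43, 7.15 and 7.27, also without overlap, and differed by -0.71 ± 0.155 (SE). Adi1, a dioxygenase of the methionine salvage pathway, read 9.60, 10.12, 10.50 and 10.75 against 11.12, 11.11, 10.96, 10.92 and 10.99. The wild type arrays of Adi1 lay within a narrow band above all Polb+/- arrays, and the difference was -0.74 ± 0.163 (SE). Its second probe differed by -0.78.

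Ccnd2, the gene of cyclin D2, which drives cells through the G1 phase, had close values within each group. It read 9.37, 9.20, 9.23 and 9.45 in Polb+/- and 9.65, 9.69, 9.78, 9.70 and 9.76 in wild type. No array of one group reached the other, and the difference was -0.39 ± 0.0970 (SE, adjusted p = 0.498). Hapln4, a link protein of the perineuronal nets around inhibitory synapses, read 10.25, 10.39, 10.26 and 10.44 against 11.36, 11.13, 10.49, 10.73 and 10.92. Vasn, a membrane protein that binds TGF-beta, read 9.32, 9.37, 9.24 and 8.63 against 9.70, 9.66, 9.70, 9.50 and 9.64. Neither overlapped, and the differences were -0.55 ± 0.139 (SE) for Hapln4 and -0.52 ± 0.124 (SE) for Vasn. Pik3cg, the catalytic subunit of a leukocyte phosphoinositide 3-kinase, read 5.72, 6.39, 6.44 and 6.07 against 6.37, 6.43, 7.39, 6.94 and 6.99. Those groups overlapped, with a difference of -0.76 ± 0.185 (SE).

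Twistnb, a subunit of RNA polymerase I, which transcribes ribosomal RNA genes, differed most among the 10 higher genes. It read 7.51, 6.74, 7.84 and 7.02 in Polb+/- and 4.53, 4.58, 4.60, 6.51 and 4.67 in wild type. It was detected on all 4 Polb+/- arrays but on 1 wild type array only, replicate 4, which lay just below the lowest Polb+/- array. It differed by 2.25 ± 0.437 (SE, adjusted p = 0.224), and 2.64 without wild type replicate 4 (adjusted p = 0.0303). Leaving out another array gave an adjusted p of up to 0.723. A second probe read 6.81, 6.45, 7.28 and 6.45 against 4.56, 4.73, 4.78, 6.27 and 4.72, the same pattern, and differed by 1.71. Of 15 tested subunits and factors of RNA polymerases I and III, 7 were higher and 8 lower, with a median of -0.01, and the next in p were Polr3d at -0.17 and Polr3k at 0.31.

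The 250 bases before the Twistnb start are shown because it had the largest difference of the 20 genes. They come from the RefSeq promoter table (GRCm38.p6, chr12:33429374-33429623, plus strand, 5′ to 3′), and capitals mark matches on either strand to the TATA box TATAAA, to the GC box GGGCGG of Sp family factors, to the core TGACG of cyclic AMP response elements, and to the CCAAT box.
Twistnb: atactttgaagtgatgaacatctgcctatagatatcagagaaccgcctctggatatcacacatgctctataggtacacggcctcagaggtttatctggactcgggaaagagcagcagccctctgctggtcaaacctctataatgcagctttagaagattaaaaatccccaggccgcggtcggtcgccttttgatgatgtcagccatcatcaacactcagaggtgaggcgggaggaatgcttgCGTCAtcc
The window held 1 match, to TGACG on the opposite strand close to the start. Of 32851 promoter windows of the same length, 17.77% held the cyclic AMP element core, 12.37% the TATA box, 32.74% the GC box and 33.85% the CCAAT box.

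Mboat2, an acyltransferase that remodels membrane phospholipids, also turned on 1 wild type array. It read 8.62, 8.78, 8.35 and 8.65 in Polb+/- and 6.82, 8.53, 6.95, 6.93 and 6.79 in wild type. Wild type replicate 2 lay among the Polb+/- arrays, and the other 4 lay well below. The difference was 1.47 ± 0.314 (SE, adjusted p = 0.273), and 1.73 without replicate 2 (adjusted p = 0.047). Without another array its adjusted p rose to as much as 0.748. The other 3 Mboat2 probes differed by 0.75, 0.65 and 0.73 in the fit of single probes.

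Kcna5, a voltage-gated potassium channel, read 5.47, 5.17, 5.42 and 5.78 in Polb+/- and 4.68, 4.97, 4.65, 4.83 and 4.84 in wild type. No wild type array detected it, so the level is given as a bound, at least 1.16-fold higher in Polb+/- (limma adjusted p = 0.224). That bound sets the Polb+/- mean against the lowest detected signal of each wild type array. A probe was kept if detected on at least 4 arrays, so Kcna5 could enter the test through the Polb+/- arrays alone. It read at most 5.06 on the other 10 arrays of the series, and its p is given only as a description. Lypd1, a small protein that binds nicotinic receptors, read 10.59, 10.09, 10.35 and 10.66 against 9.58, 9.94, 9.51, 9.92 and 9.82. The groups did not overlap, and the difference was 0.69 ± 0.143 (SE). Gbx2, a homeobox factor of the thalamus and hindbrain, read 6.27, 5.66, 5.20 and 5.70 against 4.57, 4.84, 4.69, 5.15 and 4.87. It was detected on 4 of 4 Polb+/- and 1 of 5 wild type arrays and differed by 0.86 ± 0.202 (SE). Apeh, a peptidase that removes acetylated amino acids, read 10.004, 10.21, 10.08 and 10.36 against 10.01, 10.09, 9.82, 9.73 and 9.83. Those groups overlapped, with the smallest difference of the 20 genes at 0.31 ± 0.0778 (SE).

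Me1, the cytosolic malic enzyme, which makes NADPH, gave opposite readings from its 2 probes. The brighter probe read 9.13, 9.07, 9.19 and 8.12 in Polb+/- and 8.23, 7.94, 8.21, 8.27 and 8.41 in wild type, with a difference of 0.59 ± 0.145 (SE). Polb+/- replicate 4 lay within the wild type range and the other 3 above it. The dimmer probe read 4.64, 6.13, 4.54 and 6.99 in Polb+/- and 6.86, 7.06, 7.06, 7.02 and 6.99 in wild type, a difference of -1.40 ± 0.348 (SE) in the fit of single probes. Polb+/- replicates 1 and 3, the high arrays of the first probe, were the lowest of the second, and the mean of both probes differed by -0.41. The direction for Me1 therefore depends on the probe. Bckdhb, a subunit of the branched-chain ketoacid dehydrogenase on the same chromosome, was picked after its values were seen, because it passed without Polb+/- replicate 4. It read 6.41, 7.75, 6.32 and 8.28 against 8.20, 8.15, 8.51, 8.44 and 8.41.

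The remaining higher genes were Fcgr4, Tnfaip8l2 and Clic6. Fcgr4, an activating receptor for IgG, read 6.93, 5.52, 6.70 and 7.74 in Polb+/- and 5.81, 5.93, 5.45, 5.58 and 5.93 in wild type. Replicate 2 lay within the wild type range and the other 3 above it. The difference was 1.06 ± 0.277 (SE, adjusted p = 0.538), or 1.42 without replicate 2 (adjusted p = 0.0156). Leaving out another array gave Fcgr4 an adjusted p of up to 0.9997. Tnfaip8l2, a brake on immune receptor signalling, read 6.20, 6.20, 6.27 and 6.95 against 6.04, 6.14, 5.80, 5.76 and 5.97. Replicate 4 stood above the other Polb+/- arrays, the groups did not overlap, and the difference was 0.53 ± 0.122 (SE), while a second probe differed by 0.14. Clic6, a chloride channel protein abundant in choroid plexus, read 7.77, 7.59, 7.34 and 8.34 against 5.06, 7.08, 5.67, 6.64 and 6.11, with no overlap and a difference of 1.63 ± 0.406 (SE). With the striatal covariate its difference was 0.71.

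Chromosome 12 held 6 of these 20 genes. They were Sstr1, Dbpht2, Twistnb, Mboat2, Adi1 and Pik3cg, and all 6 were among the 19 genes with a known chromosome and p under 0.001, of 10213 placed. Chromosome 12 carried 337 of the placed genes (3.3%). In the order of its tested genes, Mboat2 was number 44, Adi1 52, Pik3cg 65, Twistnb 68, Sstr1 101 and Dbpht2 138. Of the 6, 2 were higher and 4 lower. Polb+/- replicate 2 was the highest of its group for both Sstr1 and Dbpht2, and wild type replicate 4 lay nearest to the Polb+/- arrays for both Sstr1 and Twistnb. Of its 337 genes, 9.5% had p under 0.05 beside 4.49% of all placed genes, and the groups did not overlap for 4.15% beside 1.57%. Polb lies on chromosome 8, where 4.29% had p under 0.05 and 2.14% did not overlap.

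Markers of striatal projection neurons were higher on the Polb+/- arrays as a group. These neurons fill the striatum, which lies under the frontal cortex, and are marked by dopamine receptors, their signalling partners and the opioid and tachykinin peptides. Of 18 listed genes 12 were tested, and 11 of the 12 were higher, all 11 with unadjusted p under 0.05, beside 2.17% of all genes. None passed after adjustment, the groups did not overlap for 1 of the 12 (0.75% of all genes were higher without overlap), and the median log2 difference was 0.97 beside -6e-04 over all genes. The direction of this list was known from earlier results on these arrays.

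**Figure D3:**
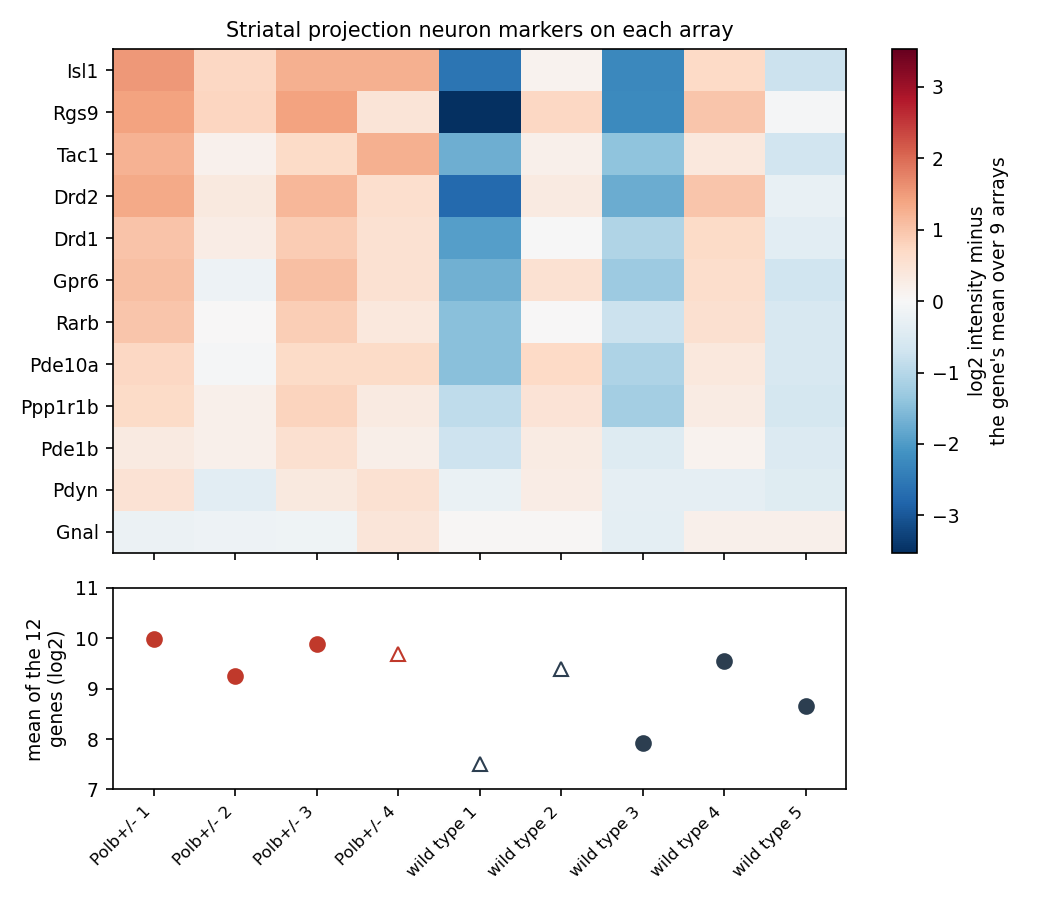
Top: log2 intensity of 12 striatal projection neuron markers on each array, minus the gene's mean over the 9 arrays. Bottom: mean log2 intensity of the 12 genes on each array (red, Polb+/-; dark, wild type; open triangles, "20 month" spelling); wild type replicates 1 and 3 lie lowest at 7.52 and 7.92, while wild type replicates 2 and 4 lie at 9.40 and 9.55, within the Polb+/- range.

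The wild type arrays spread more than the Polb+/- arrays on these genes, with an SD of 0.89 beside 0.33 for the mean of the list. The mean of the 12 genes was 9.98, 9.24, 9.89 and 9.69 on the Polb+/- arrays and 7.52, 9.40, 7.92, 9.55 and 8.65 on the wild type arrays. Wild type replicates 2 and 4 lay within the Polb+/- range, replicates 1 and 3 far below it, and replicate 5 between. Isl1, a homeobox factor of the direct pathway neurons, read 8.62, 7.82, 8.34 and 8.35 against 4.50, 7.21, 4.81, 7.79 and 6.34. It was the single member without overlap, and wild type replicate 4 came close to Polb+/- replicate 2. The difference was 2.01 ± 0.676 (SE, limma adjusted p = 0.859).

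Tac1, the precursor of substance P, read 11.82, 10.73, 11.26 and 11.84 against 8.87, 10.76, 9.19, 10.97 and 9.91. Drd1, the dopamine receptor of the direct pathway, read 10.51, 9.75, 10.40 and 10.03 against 7.56, 9.50, 8.45, 10.18 and 9.12. Drd2, that of the indirect pathway, read 8.89, 7.89, 8.72 and 8.16 against 4.83, 7.88, 5.82, 8.52 and 7.29. In each, wild type replicates 1 and 3 were lowest and replicates 2 and 4 highest of their group. The differences were 1.40 ± 0.509 (SE) for Tac1, 1.08 ± 0.454 (SE) for Drd1 and 1.37 ± 0.629 (SE) for Drd2. Rgs9, which shortens dopamine receptor signalling, ranged from 7.56 to 12.08 in wild type and from 11.55 to 12.51 in Polb+/-. Ppp1r1b, the dopamine-regulated phosphatase inhibitor DARPP-32, read 12.62, 12.10, 12.71 and 12.25 against 11.04, 12.41, 10.73, 12.23 and 11.31, and its other 2 probes differed by 0.89 and 0.65 in the fit of single probes. Gnal, the G protein alpha subunit of striatal dopamine signalling, was the exception at -0.02 ± 0.144 (SE).

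Leaving out 1 array at a time kept the median of the 12 genes between 0.75 and 1.27, and the number with p under 0.05 between 3 and 11. With the mean of the list on each array added to the fit as a covariate, 260 genes had p under 0.05 in place of 508, and the SE of the Polb difference was 0.213. Under that fit Sstr1 differed by -1.40, Twistnb by 1.78, Dbpht2 by -1.76 and Mboat2 by 1.33, while Isl1 went from 2.01 to 0.33. Isl1 is itself part of the covariate, so its fall was built in. No gene passed in that fit.

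The promoters of Isl1 and Tac1, the striatal members with the smallest p, are shown because the list moved together across arrays. They are the 250 bases before each start in the RefSeq table (GRCm38.p6), read 5′ to 3′ on the gene's strand, at chr13:116309689-116309938 on the minus strand for Isl1 and chr6:7554811-7555060 on the plus strand for Tac1. Capitals mark the same motifs on either strand.
Isl1: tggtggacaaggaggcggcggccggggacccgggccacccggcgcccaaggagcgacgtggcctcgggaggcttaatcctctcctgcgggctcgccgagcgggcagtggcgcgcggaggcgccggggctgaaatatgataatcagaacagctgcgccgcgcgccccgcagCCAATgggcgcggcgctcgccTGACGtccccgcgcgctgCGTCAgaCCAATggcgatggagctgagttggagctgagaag
Tac1: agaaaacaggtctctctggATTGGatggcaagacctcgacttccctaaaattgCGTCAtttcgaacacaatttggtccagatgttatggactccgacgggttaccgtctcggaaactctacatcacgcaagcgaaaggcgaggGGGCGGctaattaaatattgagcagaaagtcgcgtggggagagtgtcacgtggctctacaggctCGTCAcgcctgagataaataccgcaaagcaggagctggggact
The Isl1 window held 2 matches to the cyclic AMP element core and 2 to the CCAAT box, and the Tac1 window 2 to the cyclic AMP element core, 1 to the CCAAT box and 1 to the GC box. Neither held the TATA box.

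Markers of cholinergic neurons and of dopamine signalling were mostly higher too. All 5 tested cholinergic markers were higher (median 0.43), 2 of them with unadjusted p under 0.05, beside 2.17% of all genes. Slc5a7, the choline transporter, read 6.93, 5.87, 6.57 and 6.11 against 4.54, 5.13, 5.27, 6.40 and 5.32, and Chat, which makes acetylcholine, 7.97, 7.20, 7.52 and 7.48 against 5.07, 7.57, 5.96, 7.64 and 6.34. Wild type replicate 4 reached the Polb+/- range in both, and replicate 1 was lowest in both. The differences were 0.93 ± 0.309 (SE) for Slc5a7 and 0.92 ± 0.477 (SE) for Chat. With the striatal covariate, which holds none of these genes, they were 0.28 for Slc5a7 and -0.23 for Chat. Under that fit 4 of the 5 were higher (median 0.21) and none had p under 0.05. Of 8 dopamine signalling genes, 6 were higher (median 0.18) and 4 had unadjusted p under 0.05, beside 2.17% of all genes. With the striatal covariate 2 of the 8 were higher (median -0.03) and none had p under 0.05. Of the 4, Drd1, Drd2 and Ppp1r1b were also striatal members, and the other was Ddc, an enzyme of dopamine synthesis, at 0.31 ± 0.139 (SE). Drd1, Drd2 and Ppp1r1b are part of the covariate, so their fall under it was built in. Of 14 cortical layer markers, 6 were higher and 8 lower (median -0.03), and 2, both higher, had unadjusted p under 0.05, beside 2.17% of all genes. These were Lmo3 and Foxp2, transcription regulators also expressed in striatum, which differed by 0.61 ± 0.169 and 0.49 ± 0.211 (SE), while Rorb, a layer 4 factor, differed by -0.34 ± 0.166 (SE). Foxp2 read 6.39, 5.91, 6.52 and 5.97 against 4.99, 5.46, 5.50, 6.32 and 5.82, with wild type replicate 4 highest and replicate 1 lowest of its group. The part that striatal tissue had in these differences was not tested, and the covariate cannot measure it for genes that the covariate contains.

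**Figure D4:**
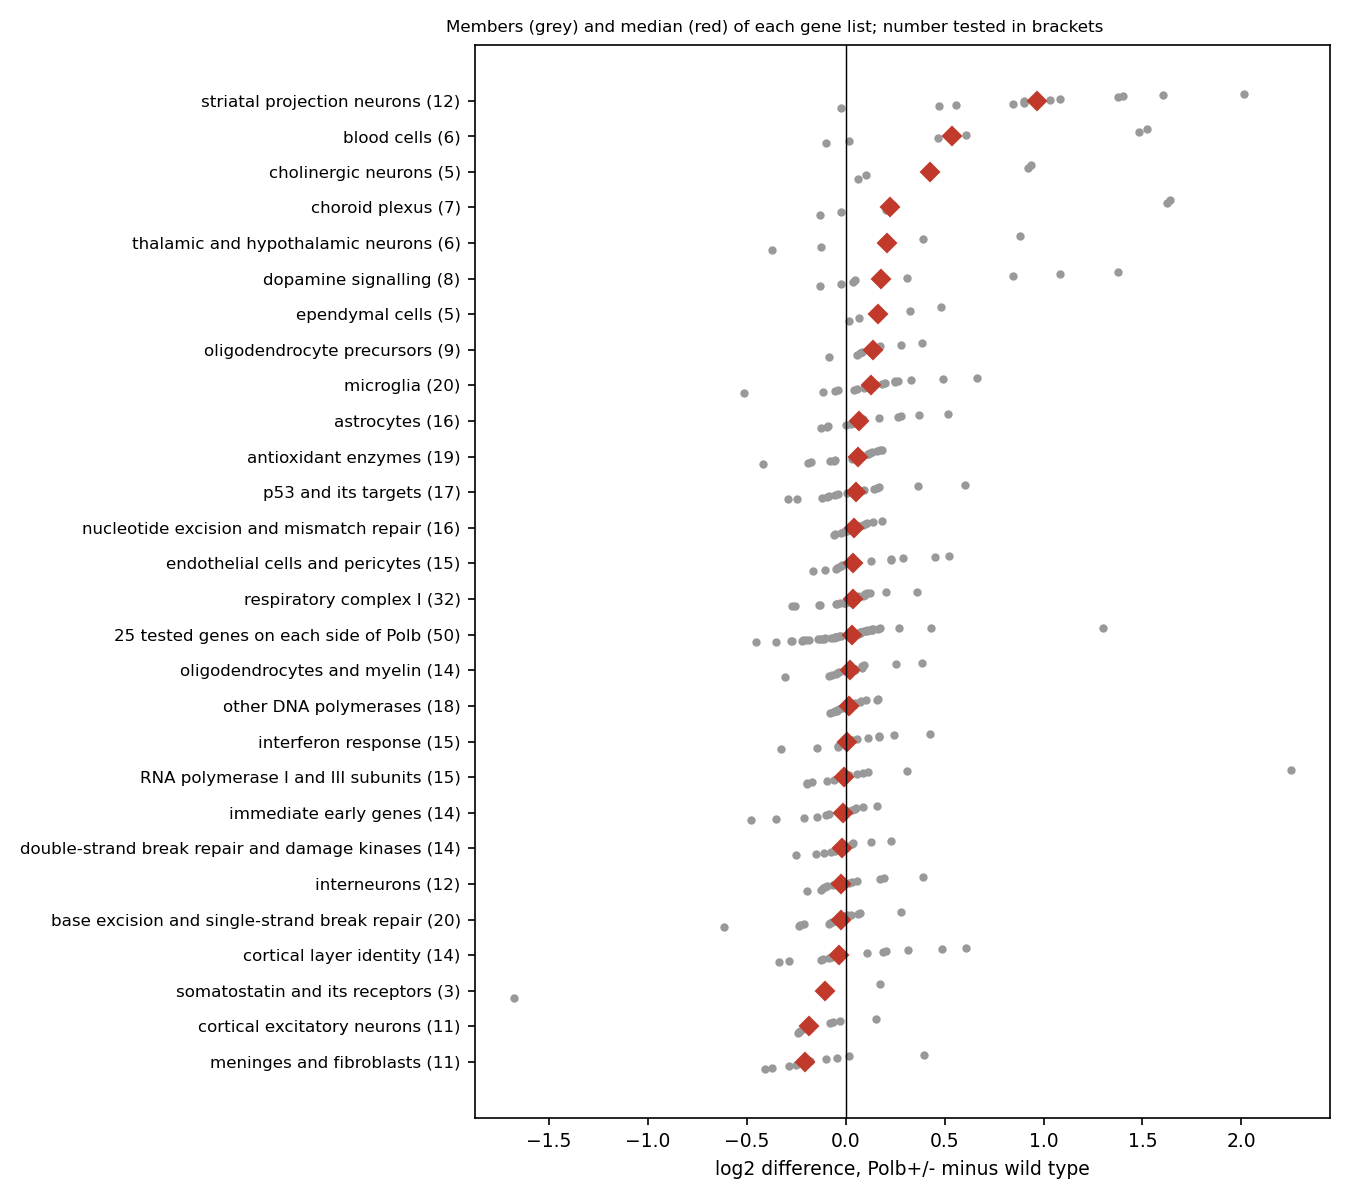
Log2 difference, Polb+/- minus wild type, of each tested member (grey) and the median (red) of 27 gene lists and of the 50 tested genes beside Polb, with the number of genes tested in brackets. The striatal list has the highest median at 0.97, and the meningeal and cortical excitatory lists the lowest at -0.20 and -0.19.

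Markers of cortical excitatory neurons, which the labelled tissue should hold, were present at high intensity on every array. The vesicular glutamate transporter Slc17a7 averaged 12.08 ± 0.265 (SD) on the 4 Polb+/- arrays and 12.35 ± 0.167 (SD) on the 5 wild type arrays. For the kinase Camk2a the means were 13.25 ± 0.187 and 13.32 ± 0.139 (SD). Of 11 tested, 10 were lower in Polb+/-, with a median of -0.19, and 1 had unadjusted p under 0.05, beside 2.42% of all genes. That gene was Mef2c, an activity-dependent transcription factor, which read 13.15, 13.20, 13.04 and 12.72 against 13.19, 12.79, 13.50, 13.28 and 13.38. Its groups overlapped, and it differed by -0.23 ± 0.111 (SE). The mean of the list was 11.24 to 11.43 on the Polb+/- arrays and 11.32 to 11.58 on the wild type arrays. With the striatal covariate its median was -0.06.

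Microglial markers were mostly higher. Of 20 tested, 16 were higher, with a median of 0.13, and 2 had unadjusted p under 0.05, beside 2.17% of all genes. Fcgr3, a low-affinity receptor for IgG, read 9.28, 8.44, 8.49 and 8.94 against 7.78, 8.32, 8.72, 7.92 and 7.97. Wild type replicate 3 lay within the Polb+/- range, and the difference was 0.67 ± 0.206 (SE, limma adjusted p = 0.752). C1qb, a chain of the complement starter C1q, read 11.17, 10.43, 10.36 and 11.66 against 10.54, 11.30, 10.45, 10.22 and 9.99, and differed by 0.49 ± 0.204 (SE). Its sister chains C1qc and C1qa differed by 0.33 ± 0.162 and 0.26 ± 0.198 (SE), both with wild type replicate 2 among the highest arrays. Trem2, the lipid receptor of microglia, and Tmem119, a marker of resident microglia, differed by 0.25 and 0.15 with overlap. The genes named here were all higher, while the 4 lower members of the list reached -0.515. With the striatal covariate 13 of 20 were higher, with a median of 0.07.

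Among other glia, 13 of 16 astrocyte genes were higher (median 0.07), 2 with unadjusted p under 0.05, beside 2.17% of all genes. Ceruloplasmin (Cp), a copper-carrying ferroxidase, read 7.70, 7.70, 7.42 and 7.95 against 7.05, 6.78, 7.41, 7.47 and 7.19 and differed by 0.52 ± 0.188 (SE). Ntsr2, a neurotensin receptor of astrocytes, read 11.88, 12.12, 11.89 and 11.93 against 11.77, 11.81, 11.34, 11.70 and 11.77, with no overlap and a difference of 0.28 ± 0.118 (SE). Gfap, the filament of reactive astrocytes, differed by 0.37 ± 0.297 (SE), from 0.77 within "20- month" to -0.29 within "20 month". Of 9 genes of oligodendrocyte precursors, 8 were higher (median 0.14), and Olig2, which specifies the lineage, was at 0.39 ± 0.182 (SE), detected on 4 of 4 Polb+/- and 2 of 5 wild type arrays. Mature oligodendrocyte and myelin genes divided evenly, 7 higher and 7 lower, with a median of 0.02 and no p under 0.05. That split moved with single arrays, with 12 of 14 higher without wild type replicate 2 and 3 of 14 without wild type replicate 3, and 2 of 14 were higher with the striatal covariate. Mobp, a myelin protein, had the smallest p of them at 0.38 ± 0.194 (SE).

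Cells at the borders of the tissue gave values that were uneven across arrays. Of 7 choroid plexus genes, 5 were higher (median 0.23), and 2, Clic6 and Ttr, had unadjusted p under 0.05, beside 2.17% of all genes. Ttr, the thyroxine carrier made by choroid plexus, read 8.19, 11.13, 7.83 and 6.87 against 4.78, 6.43, 7.21, 6.78 and 8.54, so Polb+/- replicate 2 was highest and wild type replicate 1 lowest. Its difference was 1.64 ± 0.723 (SE). Of 6 blood cell genes, 5 were higher (median 0.54), led by the neutrophil proteins S100a9 and S100a8. S100a9 read 6.68, 6.76, 8.09 and 9.18 against 4.99, 6.01, 6.36, 6.55 and 7.48, and S100a8 read 8.47, 8.11, 10.04 and 10.83 against 6.91, 7.64, 8.06, 8.47 and 9.14. Polb+/- replicates 3 and 4 were the highest in both, and the 2 groups overlapped. The S100a9 difference was 1.52 ± 0.681 (SE), 0.38 within "20- month" and 3.68 within "20 month". The haemoglobin gene Hba-a1 differed by -0.10 ± 0.367 (SE).

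Meningeal and fibroblast genes were lower for 9 of 11, with a median of -0.20, and the 2 higher genes reached 0.39. The median was -0.064 without Polb+/- replicate 4 and -0.01 with the striatal covariate, where 5 of 11 were higher. Aldh1a2, which makes retinoic acid in the meninges, read 6.06, 6.01, 5.73 and 6.00 against 6.46, 6.62, 6.16, 6.10 and 6.13, with no overlap and a difference of -0.29 ± 0.118 (SE). A second Aldh1a2 probe differed by -0.04 in the fit of single probes. Igfbp2, a binding protein of insulin-like growth factors, differed by -0.37 ± 0.197 (SE), and its second probe by -0.32. The 15 endothelial and pericyte genes had 8 higher and 7 lower with a median of 0.04, and no p was under 0.05. Interneuron markers divided 6 to 6 with a median of -0.02, and the parvalbumin gene Pvalb differed by -0.20 ± 0.202 (SE). Within each of these lists no gene passed after adjustment.

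Genes of the responses that damaged DNA is known to set off were examined next. Of 17 tested genes of p53 and its targets, 10 were higher, with a median of 0.05. With the mean of all probes of a gene, 8 of 17 were higher, with a median of -0.01. Tnfrsf10b, a death receptor, read 6.46, 7.60, 6.87 and 7.50 against 6.56, 6.62, 6.14, 6.68 and 6.55, and was the single member of the 17 with unadjusted p under 0.05, beside 4.59% of all genes. Polb+/- replicate 1 lay within the wild type range and the other 3 above it, and the difference was 0.60 ± 0.23 (SE). Cdkn1a, which encodes the cell cycle inhibitor p21, differed by 0.37 ± 0.397 (SE), with Polb+/- replicate 4 at 9.99 and the other 8 arrays between 8.25 and 8.97. Gadd45a of the same list was lower, at -0.29 ± 0.18 (SE), and its second probe differed by -0.41 in the fit of single probes. Sesn1 differed by 0.16 ± 0.0899 (SE), and its second probe by -0.18. Double-strand break repair and damage kinase genes had a median of -0.02 over 14 genes. Prkdc, the catalytic subunit of the DNA-dependent kinase, differed by 0.23 ± 0.105 (SE), and Atm, the kinase that signals double-strand breaks, by -0.25 ± 0.232 (SE). In the fit of single probes, a second probe differed by 0.01 for Prkdc and by -0.42 for Atm. Nucleotide excision and mismatch repair genes were higher for 12 of 16 with a median of 0.04, and none had p under 0.05.

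Antioxidant enzymes were higher for 13 of 19, with a median of 0.06. Hmox1, the inducible haem oxygenase, had the smallest p, and read 5.81, 5.47, 5.36 and 5.24 against 5.09, 6.44, 5.81, 5.95 and 5.87. Wild type replicate 1 was the lowest of all 9 arrays, and the difference was -0.42 ± 0.19 (SE). Gclm, a subunit of the enzyme that limits glutathione synthesis, differed by 0.18 ± 0.112 (SE). Complex I of the respiratory chain had 23 of 32 subunits higher with a median of 0.04 and none with p under 0.05, but 13 of 32 higher with median scaling and 12 of 32 without the spelling block. Interferon response genes divided 8 to 7 with a median of 0.01. Of the 15, 12 were higher within "20- month", 4 within "20 month" and 12 without wild type replicate 2. Ifit2, an interferon-induced RNA-binding protein, differed by -0.33 ± 0.138 (SE), and its second probe by -0.11 in the fit of single probes. Of 14 immediate early genes, 8 were lower with a median of -0.01, and Arc, a synaptic plasticity protein, differed by -0.48 ± 0.23 (SE).

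Genes beside Polb on chromosome 8 were described as well. Polb was number 60 of 560 tested genes on that chromosome. Of the 25 tested genes on each side of it, 29 were higher and 21 lower, with a median of 0.03. Unadjusted p was under 0.05 for 2 of the 50, beside 4.59% of all genes, and these were Dlgap2, a scaffold of excitatory synapses, at -0.28 ± 0.11 (SE), and Adam32 at -0.35 ± 0.144 (SE). Dlgap2 was -0.44 within "20- month" and 0.06 within "20 month", and Adam32 was detected on 1 of 4 Polb+/- and 3 of 5 wild type arrays. Ido1, which breaks down tryptophan, had the next smallest p at 1.30 ± 0.669 (SE), and with the striatal covariate it differed by -0.36.

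The second background compared the other 10 arrays, in the same fit, which shares the spelling term and the residual variance between both comparisons. In it, 3xTgAD replicates 2 and 5, which shared a code, counted as separate samples. There, 3xTgAD/Polb+/- against 3xTgAD gave 0 genes after adjustment by limma and 1562 with unadjusted p under 0.05 (14.1%). Polb differed by -0.34 ± 0.193 (SE, unadjusted p = 0.0934), and the 2 estimates for Polb differed with unadjusted p = 0.34. Of the 20 genes, 13 had the same direction in both backgrounds, beside 55.4% of all genes. Of these, 3 also had unadjusted p under 0.05 in that direction, Me1 and Fcgr4 higher, beside 8.1% of all genes, and Ccnd2 lower, beside 6.01%. Without Me1, whose direction depended on the probe, 12 of 19 had the same direction and 2 also had unadjusted p under 0.05.

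**Figure D5:**
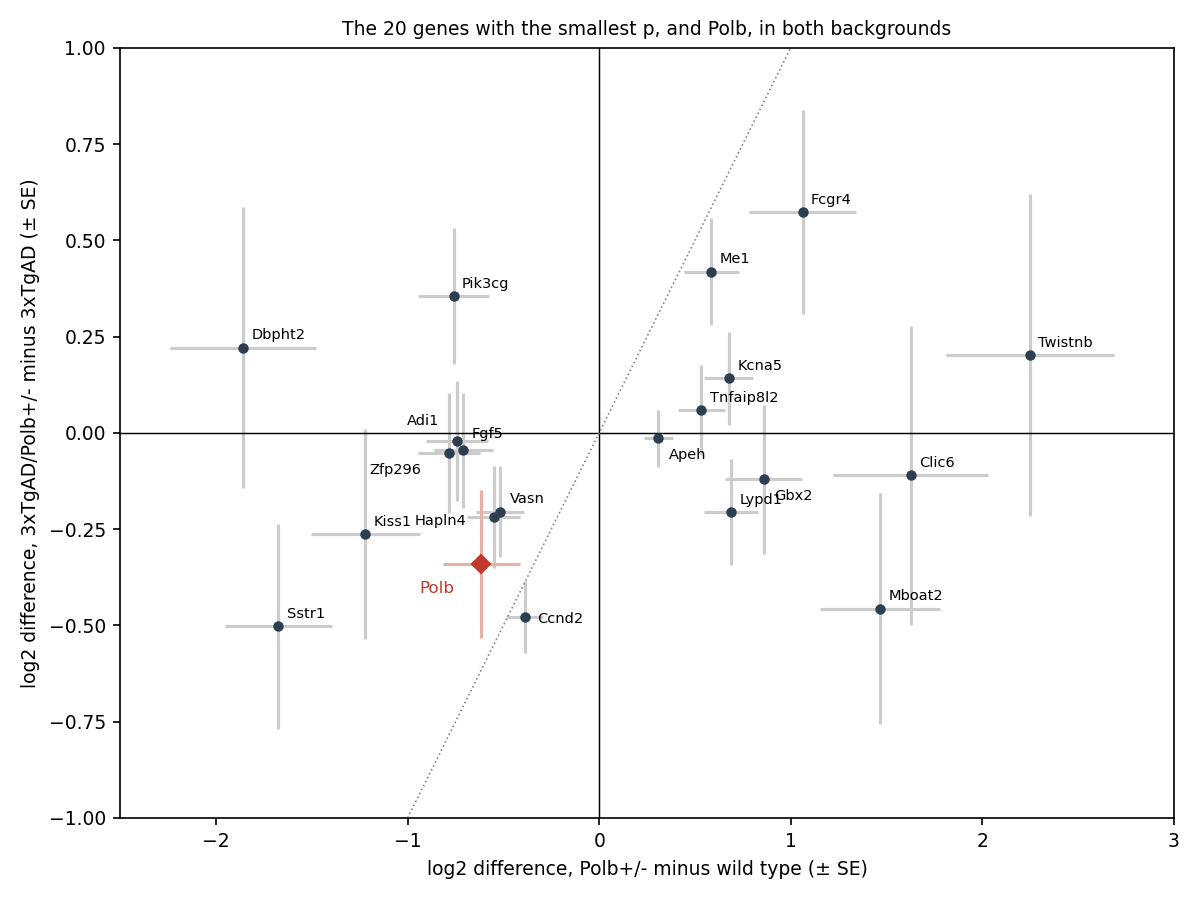
Log2 difference in the wild type background (Polb+/- minus wild type, horizontal) and in the 3xTgAD background (3xTgAD/Polb+/- minus 3xTgAD, vertical, on a wider scale), each with its SE, for the 20 genes with the smallest p and Polb (red); the dotted line marks equal differences. Ccnd2 and Me1 lie nearest to equal values among the 20 genes, and Twistnb, Dbpht2, Mboat2 and Clic6 lie far from the line.

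Ccnd2 differed by -0.48 ± 0.0928 (SE) in the 3xTgAD background, Me1 by 0.42 ± 0.139 (SE) and Fcgr4 by 0.57 ± 0.265 (SE). Sstr1 was lower in both, at -0.50 ± 0.266 (SE) in the second. Twistnb differed by 0.20 ± 0.418 (SE), Dbpht2 by 0.22 ± 0.365 (SE) and Mboat2 by -0.46 ± 0.3 (SE). For 15 of the 20 genes the 2 backgrounds differed with unadjusted p under 0.05, beside 5.56% of all genes, but none passed after adjustment (lowest adjusted p over all genes 0.652), and these genes had been chosen for their small p in the first background. The striatal list had a median of -0.17 there, with 2 genes higher and 10 lower, and complex I a median of -0.36, with 3 higher and 29 lower. The mean of the striatal list was 7.75, 7.85, 7.84, 9.63, 7.82 and 9.26 on the 3xTgAD arrays. It was 8.40, 8.29, 7.56 and 8.29 on the 3xTgAD/Polb+/- arrays. So 3xTgAD replicates 4 and 6 lay within the range of the Polb+/- arrays, 9.24 to 9.98. The mean of the complex I list was 10.82, 10.31, 11.60 and 11.40 on the 3xTgAD/Polb+/- arrays. It ran from 10.88 to 11.52 on the 3xTgAD arrays, so only 3xTgAD/Polb+/- replicates 1 and 2, both "20- month", lay below that range. The brightest Aptx probe was higher in both backgrounds, with 0.38 ± 0.122 (SE) in the second.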

How the data were processed

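The authors deposited, per the file headers, a non-normalised intensity and a detection p-value for each of 25697 probes on each array. GenomeStudio 1.9.0 stood in the submitters' processing notes, and other steps were not given in the sources used here. A second table deposited by the authors held a score, which differed by at most 5e-10 from the z score of the log10 intensity within each array.

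Intensities were corrected and quantile-normalised with neqc (limma 3.58.1 in R 4.3.3, with an offset of 16) on the 19 arrays. Probes detected at p under 0.05 on at least 4 arrays were kept (14942). A symbol came from the platform table (23978 probes with 1 symbol, 1719 with none, updated by gene identifier for 23962), and the probe with the highest mean stood for a gene. A further 855 kept probes had no symbol and were tested singly, which gave 11072 genes. One limma fit (lmFit, eBayes) held 4 genotype means and the spelling block (14 residual, 4.645 prior degrees of freedom). P-values were two-sided and adjusted by Benjamini-Hochberg over all genes, with a threshold of 0.05. No array was dropped or imputed. Scripts were tested on simulated data.

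Named genes were Polb, the 10 with the smallest p in each direction (fewer than 10 passed), up to 3 members with the smallest p from each of 27 lists (347 of 483 genes tested), and 3 beside Polb. Other list members are given to complete a group. The members, lists and rules were chosen with earlier results of these data known. RefSeq promoters (GRCm38.p6) matched 10 of the 12 striatal genes and 15 of the 20 genes with the smallest p.

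Replicate numbers were checked for pairing. Deviations from the group means correlated at -0.11 to 0.38 for arrays of the same number and at -0.32 to 0.16 for others, so the numbers were not taken to pair the arrays. Alternatives covered the blocks, arrays in the fit, background correction, scaling, offset, deposited score, detection filter, probe rule, eBayes settings, array weights, the striatal covariate and leaving out each array.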

Additional observations from a re-analysis of the deposited data

Results flagged for a closer look

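Among 202 groups checked (101 named genes, each in Polb+/- and in wild type), 13 held an array whose gap to the nearest array exceeded Dixon's limit, in 11 genes. Chance alone marks about 1 group in 20.

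For Sstr1, Polb+/- replicate 2 read 5.88 beside 4.49 to 4.60 on the others, and wild type replicate 4 read 6.00 beside 6.66 to 6.75. Both lay toward the other group. Twistnb in wild type replicate 4 read 6.51 beside 4.53 to 4.67, and Mboat2 in wild type replicate 2 read 8.53 beside 6.79 to 6.95, each near the Polb+/- values. Me1 in Polb+/- replicate 4 read 8.12 beside 9.07 to 9.19, within the wild type range. Tnfaip8l2 in Polb+/- replicate 4 read 6.95 beside 6.20 to 6.27.

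Vasn stood apart in Polb+/- replicate 4 at 8.63 (others 9.24 to 9.37) and in wild type replicate 4 at 9.50 (others 9.64 to 9.70). Lmo3 in Polb+/- replicate 4 read 11.03 beside 10.68 to 10.73. Wild type replicate 3 stood apart for Tnfrsf10b at 6.14 (others 6.55 to 6.68), for Ntsr2 at 11.34 (others 11.70 to 11.81) and for Huwe1 at 7.94 (others 7.04 to 7.25). Rorb, a nuclear receptor of cortical input layer neurons, read 8.47 in wild type replicate 1 beside 7.75 to 7.93.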

How the results depend on the processing

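Over 2684 pairs of a result and an alternative, 2630 kept direction and side of the threshold, 22 turned direction, and the causes were not tested unless the setting itself removes arrays. Polb kept its direction in all, from -0.80 to -0.25 (the latter on the deposited score's own scale), and never passed; leaving out 1 array gave -0.68 to -0.52. With the replicate block beside the spelling block, 0 genes passed, 489 had unadjusted p under 0.05 and Polb differed by -0.63, and no other call changed with it. Genes passing numbered 15 within the "20 month" arrays (1 against 2 arrays), 5 with array weights, 1 with median scaling (Sstr1) and 0 to 6 without 1 array. Genes with unadjusted p under 0.05 numbered 814 in the fit of the 9 arrays, 788 within "20 month", 903 with array weights, 260 with the striatal covariate and 314 to 649 without 1 array. The difference between backgrounds gave 151 genes within "20- month", 1 within "20 month", 1 with each probe on its own and 0 to 1 without 1 array. The median of 15 of the 27 gene lists turned sign under at least 1 of 26 alternatives, while the other 12 kept it under all of them.

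Directions turned as follows. Within "20- month", Dusp1 was 0.0353, Opalin 0.1151, Calb2 -0.1016, Dynlrb2 -0.1555 and Cort -0.4787. Within "20 month", Dlgap2 was 0.0624, Gfap -0.2929, Oas2 -0.0416, Rad54l 4e-04 and Atm 0.2923. The mean of all probes gave Me1 -0.4063 and Sesn1 -0.0123. Array weights gave Cort -0.2074. The striatal covariate gave Drd1 -0.0186, Ido1 -0.3611, Chat -0.2285, Cacng4 -0.1279, Atm 0.0625 and Cort -0.1314. Without 1 array, Dynlrb2 ran from -0.0623 to 0.3114 and Cort from -0.2208 to 0.3804. Probes near background, such as those of Kcna5, Gbx2 and Twistnb in wild type, limit the size of those differences.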

Other observations

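The largest fitted difference of all genes, chosen after its values were seen, belonged to Tomm22, a receptor of the mitochondrial outer membrane import channel, at 2.40 ± 1.06 (SE, limma unadjusted p = 0.0361). Its wild type arrays averaged 7.64 ± 2.30 (SD, n = 5) and its Polb+/- arrays 10.12 ± 0.402 (SD, n = 4), so the wild type arrays spread by nearly as much as the groups differed.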
